A study of Mus musculus with 6 samples.

Results

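The genes described here are 10 genes that are used to recognise postmitotic neurons: *Dcx*, *Dclk1*, *Dclk2*, *Tubb3*, *Tubb2a*, *Tubb2b*, *Map2*, *Mapt*, *Stmn2* and *Rbfox3*. They were taken by gene name from a table of 54532 genes. The first 9 encode proteins of the microtubule cytoskeleton, and *Rbfox3* encodes a nuclear splicing factor, so it is a neuronal marker but no cytoskeleton gene. All 10 passed the filter on low counts, as did 17505 genes in all. RNA was sequenced in bulk from mouse cerebella at postnatal day 1, in 3 libraries labelled Ctrl and 3 labelled cKO. The Ctrl libraries came from littermates with the genotype *Tox3*f/f and no Cre, and the cKO libraries from *Nestin-cre;Tox3*f/f animals. Both groups therefore carried floxed *Tox3* alleles, while the Nestin-Cre transgene, which drives Cre in neural cells, was present in all cKO animals and in no Ctrl animal, and its effect and that of the deletion cannot be told apart. The question asked of these genes was whether neurons as a whole differ between the groups.

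Microtubules are polymers of alpha and beta tubulin, and a newborn neuron rebuilds them as it migrates and grows an axon and dendrites. Doublecortin (*Dcx*) and its kinase relatives stabilise microtubules in migrating neurons, neuronal beta tubulins make up the polymer, Map2 and Tau (*Mapt*) coat microtubules in dendrites and axons respectively, and Stathmin-2 (*Stmn2*) destabilises them in growing axons. Rbfox3 is the antigen NeuN, which in the cerebellum labels granule neurons and not Purkinje cells.

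The total count per library lay between 15391854 and 17178478. Granule neuron and Purkinje cell markers were counted in every library, as the label cerebellum implies. *Tox3* itself was counted at 63.0 to 64.4 CPM (counts scaled to a common library total with TMM factors) in Ctrl and at 55.3 to 63.2 CPM in cKO (log2 fold change −0.11, adjusted p = 0.252 in edgeR's quasi-likelihood test). Its count covers all exons and does not check the labels. By RT-qPCR on P1 cerebella, the authors report that *Tox3* was almost wholly lost in mutants. Libraries of both sexes were present. Summed over *Ddx3y*, *Eif2s3y*, *Kdm5d* and *Uty*, genes of the Y chromosome gave 203 to 253 CPM in Ctrl1, cKO1 and cKO3 and at most 0.128 CPM in Ctrl2, Ctrl3 and cKO2.

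Most of the 10 genes differed little between the groups, and *Rbfox3* was the exception. A gene was called at an adjusted p under 0.01 (edgeR, Benjamini-Hochberg over all tested genes) with a log2 fold change beyond 0.5. By this rule 1 of the 10 was called down, *Rbfox3*, against 3.63% of all tested genes, and 0 were called up, against 3.03%. DESeq2 and limma also called 0 up, and 3 of the genes had an unadjusted p under 0.05 in the upward direction in edgeR. At an adjusted p under 0.01 without a fold threshold, 3 of the 10 were higher in cKO (*Dclk1*, *Tubb2a* and *Mapt*), where 6.55% of all tested genes were, and 1 was lower, where 7.24% were. The CPM values of the groups did not overlap for 4 genes that were higher in cKO (*Dclk1*, *Dclk2*, *Tubb2a* and *Mapt*; 20.4% of all tested genes) and for 1 that was lower (*Rbfox3*; 20.1% of all tested genes). The 95% intervals of 8 of the 10 log2 fold changes lay wholly between −0.5 and 0.5, and the other two belonged to *Dcx* and *Rbfox3*.

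Taken as a sum, the 10 genes held a slightly larger share of all counts in cKO, which is a description without a test. Fitted log2 fold changes were above 0 for 7 and below 0 for 3, with a median of 0.10 beside a median of −0.007 over all tested genes. Together they took 0.741%, 0.719% and 0.752% of all counts in Ctrl1, Ctrl2 and Ctrl3 and 0.779%, 0.781% and 0.772% in cKO1, cKO2 and cKO3. The lowest cKO share was thus above the highest Ctrl share. Relative to the Ctrl mean, the median over the 10 genes was 0.06, −0.051 and 0.012 on the log2 scale in the Ctrl libraries and 0.142, 0.059 and 0.11 in the cKO libraries, so that cKO2 lay just below Ctrl1 by this measure. In bulk tissue, fewer cells of a type and less RNA per cell cannot be told apart.

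**Figure D1:**
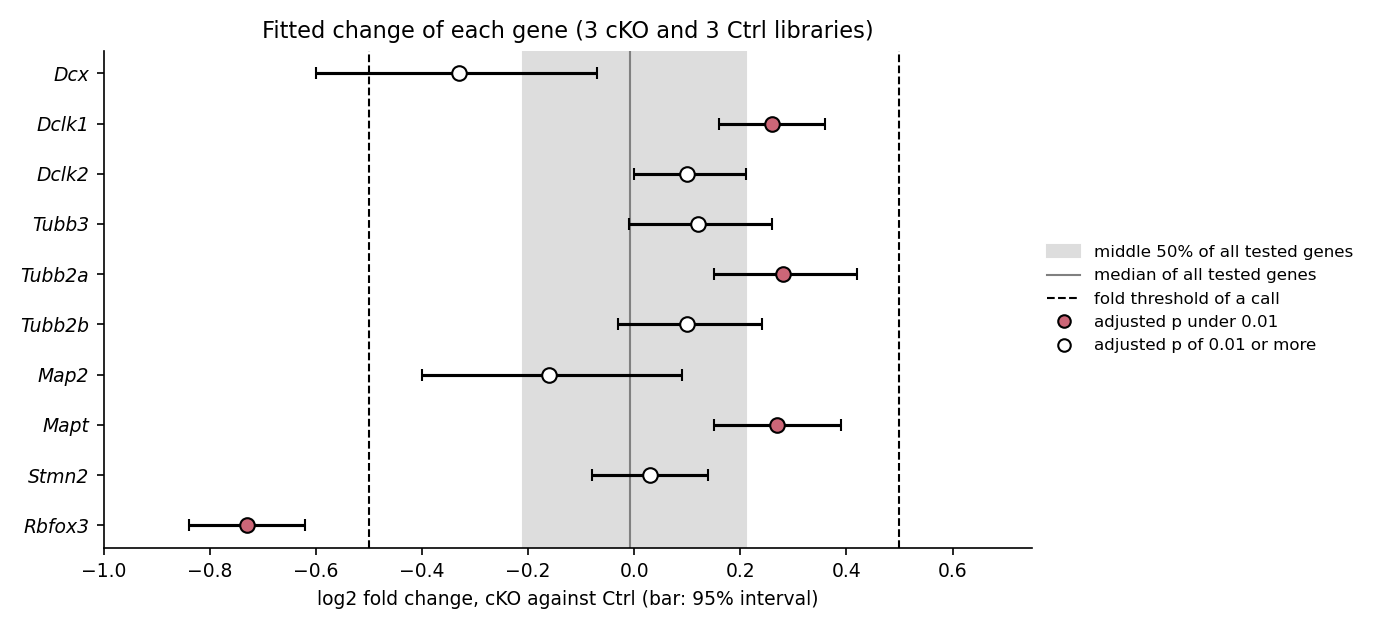
Log2 fold change of cKO against Ctrl (x axis) for each of the 10 genes (y axis), with the 95% interval of edgeR's fit to 3 libraries a group; filled points have an adjusted p under 0.01, the grey band holds the middle 50% of all tested genes and the dashed lines mark the fold threshold of 0.5. *Rbfox3* at −0.73 lies beyond the threshold with its whole interval, *Dclk1*, *Tubb2a* and *Mapt* are filled on the right at 0.26 to 0.28, and the intervals of *Dcx* and *Map2* are the widest.

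Levels of different genes were compared as deposited FPKM, which divide the counts by gene length. In Ctrl the order was *Tubb2b* (659 ± 50.1 FPKM, SD, n = 3), *Tubb3* (415 ± 25.5), *Tubb2a* (316 ± 23.7), *Stmn2* (146 ± 6.75), *Mapt* (115 ± 6.19), *Dcx* (64.6 ± 6.15), *Dclk2* (51.2 ± 1.91), *Map2* (48.4 ± 4.91), *Dclk1* (35.6 ± 0.447) and *Rbfox3* (33.3 ± 1.42). Of the neighbours in this order, only *Dclk2* and *Map2* overlapped in their library values. In cKO the order of the first 5 was the same, although *Stmn2* (149 ± 4.99 FPKM) and *Mapt* (139 ± 6.48 FPKM) now overlapped. *Dclk2* (55.2 ± 1.72 FPKM) then stood before *Dcx* (51.4 ± 9.70), *Map2* (43.6 ± 6.97) and *Dclk1* (42.8 ± 1.47), and each of these overlapped its neighbour. *Rbfox3* remained last at 20.1 ± 0.368 FPKM, below *Dclk1* without overlap.

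The doublecortin family was split: *Dclk1* was higher in cKO, *Dclk2* differed little, and *Dcx* was measured lower with a wide spread between libraries. *Dcx* (ENSMUSG00000031285, GRCm38 chromosome X, 143855842 to 143933311, minus strand), which marks migrating young neurons, had 738, 889 and 845 CPM in Ctrl1, Ctrl2 and Ctrl3 and 588, 801 and 574 CPM in cKO1, cKO2 and cKO3. Libraries 1 and 3 of the cKO group lay below every Ctrl library, whereas cKO2 lay above Ctrl1, so the groups overlapped. The log2 fold change was −0.33 (standard error 0.12, 95% interval −0.60 to −0.07, adjusted p = 0.0689), which did not pass the threshold. Among libraries with Y-chromosome genes, which hold 1 Ctrl and 2 cKO, the difference in log2 CPM was −0.35, and among those without, which hold 2 Ctrl and 1 cKO, it was −0.11. The cKO library without them is cKO2, so within cKO sex cannot be told apart from other traits of cKO2. With a term for the Y-chromosome genes in the fit, the log2 fold change was −0.24 (adjusted p = 0.00113, edgeR), and without cKO2 it was −0.49 (adjusted p = 0.000933, edgeR). Over 20 alternatives the value stayed between −0.49 and −0.24, and the adjusted p was under 0.01 in 5 of them. The adjusted p was 0.175 in DESeq2 and between 0.0998 and 0.244 in limma. Without Ctrl2, Ctrl3, cKO1 or cKO3, one at a time, it lay between 0.166 and 0.224 in edgeR.

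*Dclk1* (ENSMUSG00000027797, chromosome 3, 55242364 to 55539068, plus strand), a kinase with doublecortin domains, had 543, 556 and 550 CPM in Ctrl and 638, 687 and 647 CPM in cKO, in the order of the library numbers. All cKO libraries were above all Ctrl libraries, and the Ctrl values were spread by an SD of only 6.56 CPM. The log2 fold change of 0.26 (standard error 0.05, 95% interval 0.16 to 0.36, adjusted p = 0.00306) is a change of 19.7%, under the fold threshold of a call. Without Ctrl1, Ctrl3, cKO1 or cKO3, one at a time, the adjusted p lay between 0.0101 and 0.0134 at log2 fold changes of 0.25 to 0.28. *Dclk2* (ENSMUSG00000028078, chromosome 3, 86786151 to 86920852, minus strand), a second kinase of the family, had 535, 533 and 569 CPM in Ctrl and 604, 575 and 577 CPM in cKO. The groups did not overlap, but the gap between Ctrl3 and cKO2 was small, and the log2 fold change of 0.10 (95% interval 0.00 to 0.21, adjusted p = 0.152) did not pass. It passed in none of the 20 alternatives.

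**Figure D2:**
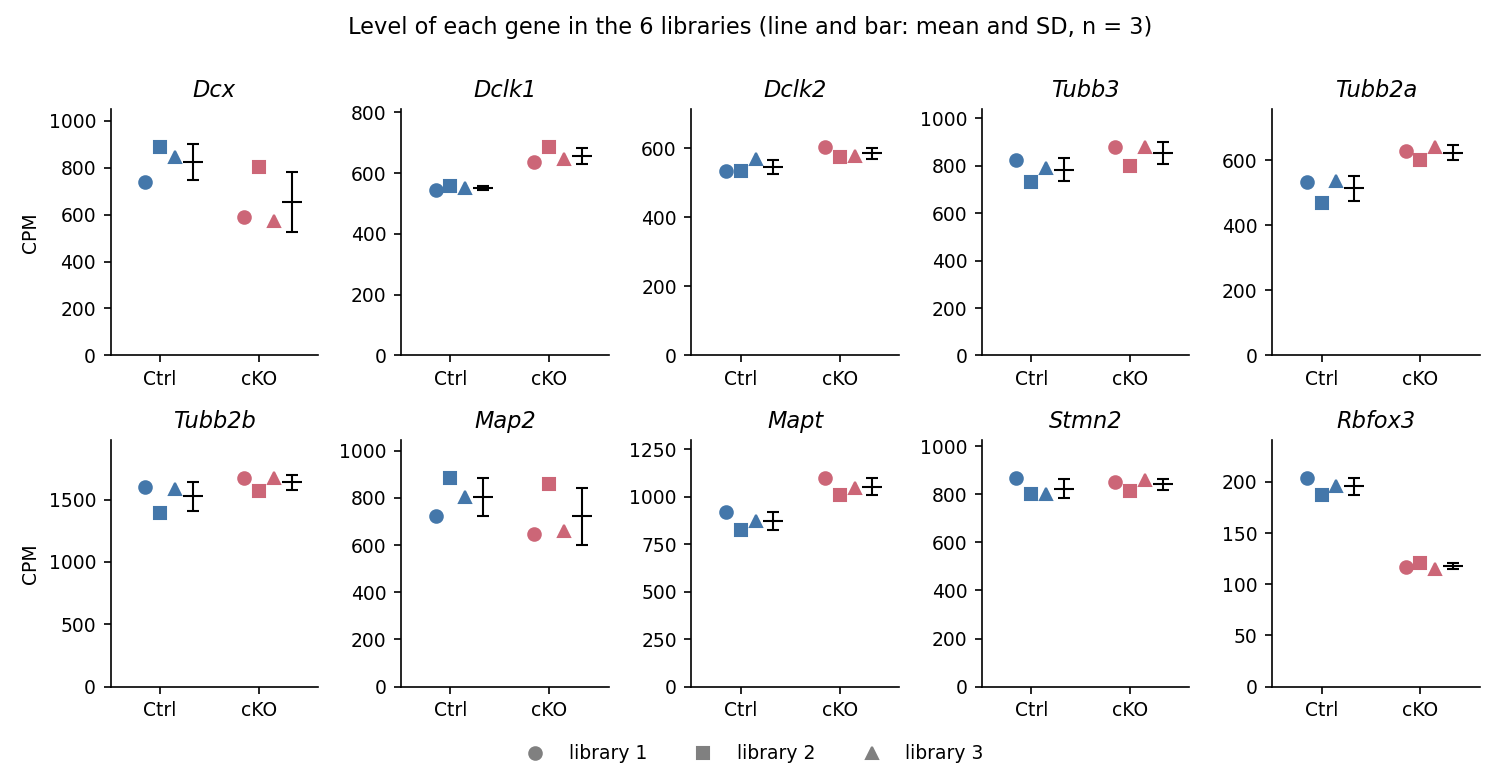
CPM (y axis, from 0) of each of the 10 genes in the 3 Ctrl and 3 cKO libraries, with marker shapes for libraries 1, 2 and 3 and a black line with bars for the mean and SD (n = 3). The cKO values of *Rbfox3* (115 to 121 CPM) lie far below those of Ctrl (187 to 204 CPM), those of *Dclk1*, *Tubb2a* and *Mapt* lie above Ctrl, and the square of library 2 is the highest of its group for *Dcx* and *Map2*.

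The 3 neuronal beta tubulins were all measured somewhat higher in cKO. *Tubb3* (class III beta tubulin, the antigen TuJ1; ENSMUSG00000062380, chromosome 8, 123411424 to 123422015, plus strand) had 826, 730 and 793 CPM in Ctrl and 879, 800 and 881 CPM in cKO. The groups overlapped, since cKO2 lay below Ctrl1, and the log2 fold change was 0.12 (standard error 0.06, 95% interval −0.01 to 0.26, adjusted p = 0.163). *Tubb2a* (ENSMUSG00000058672, chromosome 13, 34074274 to 34078007, minus strand) had 533, 468 and 537 CPM in Ctrl and 629, 599 and 641 CPM in cKO. Every cKO library lay above every Ctrl library, and the log2 fold change was 0.28 (standard error 0.06, 95% interval 0.15 to 0.42, adjusted p = 0.00783). Without Ctrl1, Ctrl2, Ctrl3, cKO1 or cKO3, one at a time, the adjusted p lay between 0.0122 and 0.0381. *Tubb2b* (ENSMUSG00000045136, chromosome 13, 34126748 to 34130466, minus strand), the most abundant of the 10 genes, had 1597, 1390.2 and 1587 CPM in Ctrl and 1672, 1566 and 1674 CPM in cKO. It overlapped between the groups because cKO2 lay below Ctrl1 and Ctrl3, and the log2 fold change was 0.10 (standard error 0.06, 95% interval −0.03 to 0.24, adjusted p = 0.244).

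*Tubb2a* and *Tubb2b* are neighbours on chromosome 13 and near-identical copies, and this bears on how far their counts can be separated. Their coding sequences, both 1338 bases long, were identical at 96.5% of positions, while *Tubb3* (1353 bases) was identical to *Tubb2a* at 83.4% and to *Tubb2b* at 83.6%. The end of the coding sequence encodes the acidic tail. The last 60 coding bases of each gene, stop codon included, are shown 5′ to 3′ from GENCODE M21 transcripts (GRCm38). They lie in the last exon, at chr13:34074468-34074527 (minus strand), chr13:34127471-34127530 (minus strand) and chr8:123421623-123421682 (plus strand) for *Tubb2a*, *Tubb2b* and *Tubb3* respectively. Capitals mark the 3 bases that differ between *Tubb2a* and *Tubb2b*, and in *Tubb3* the 30 bases that differ from *Tubb2a* or have no partner there. The 3 bases that differ between *Tubb2a* and *Tubb2b* leave the encoded amino acids the same.
Tubb2a: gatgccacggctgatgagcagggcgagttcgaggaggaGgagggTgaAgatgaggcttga
Tubb2b: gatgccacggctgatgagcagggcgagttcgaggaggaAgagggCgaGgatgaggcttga
Tubb3: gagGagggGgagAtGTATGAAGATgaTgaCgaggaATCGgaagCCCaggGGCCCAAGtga
Of all windows of 150 bases, the read length, in the longest transcript, 27.9% in *Tubb2a* (408 of 1461) also occurred in *Tubb2b*, and 20.1% in *Tubb2b* (408 of 2033) in *Tubb2a*. None of the windows of the other 8 genes occurred in another gene. When *Tubb2a* and *Tubb2b* were summed to a single row before the fit, the log2 fold change was 0.15 (adjusted p = 0.0913, edgeR), past the threshold no longer. *Tubb2b* had the higher counts and weighs more in this sum, which cannot test how reads were assigned between the copies. Within a library the ratio of *Tubb2a* to *Tubb2b* FPKM was 0.476, 0.480 and 0.482 in Ctrl and 0.536, 0.545 and 0.545 in cKO. The difference of 0.18 in log2 was larger than the pooled SD of 0.012 between libraries. With 3 libraries against 3 a two-sided exact permutation test cannot give a p under 0.1, which was the value found here (adjusted p = 0.133 over 4 ratios).

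The 3 neuronal genes also made up a larger part of the beta tubulin transcripts in every cKO library. Over all 8 beta tubulin genes the summed FPKM were 2343, 2112 and 2273 in Ctrl and 2365, 2192 and 2359 in cKO, and the groups overlapped. *Tubb3*, *Tubb2a* and *Tubb2b* together made up 62.1%, 60.4% and 63.2% of this sum in Ctrl and 67.1%, 66.9% and 67.6% in cKO. The mean share was 61.9 ± 1.40% in Ctrl and 67.2 ± 0.378% in cKO (SD, n = 3), a difference of 5.29 percentage points. The counterpart was *Tubb5*, the beta tubulin used by most cell types and by dividing cells, with 27.8%, 28.8% and 27.0% in Ctrl and 23.2%, 22.7% and 22.4% in cKO. *Tubb5* was lower in cKO at an adjusted p of 0.00375 (log2 fold change −0.26, edgeR), though not called. The ratio of *Tubb3* to *Tubb5* was 0.672, 0.636 and 0.685 in Ctrl and 0.857, 0.850 and 0.891 in cKO, a log2 difference of 0.38 against a pooled SD of 0.0471 (exact permutation p = 0.1, adjusted p = 0.133). Cycling cell markers moved with these shares: all 6 were lower in cKO and 5 were called down, with summed levels of 1147 to 1298 CPM in Ctrl and 636 to 734 CPM in cKO, and their part in the shares was not tested. Over all tested genes, 3.63% were called down.

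**Figure D3:**
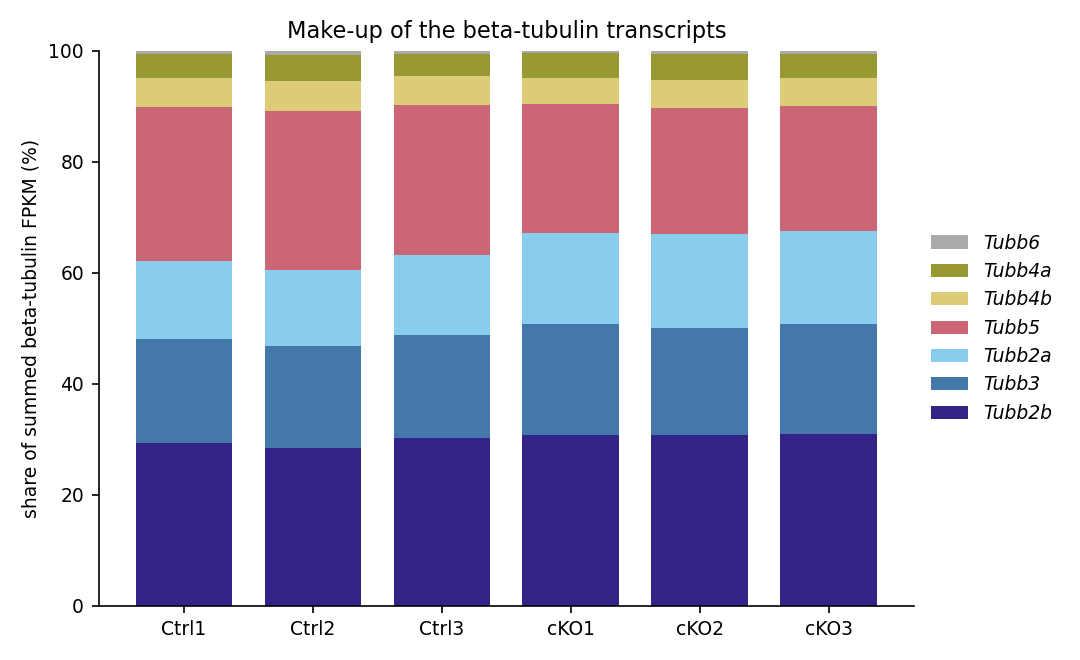
Share of each beta tubulin gene in the summed beta tubulin FPKM (y axis, percent) in the 6 libraries (x axis); *Tubb1*, under 0.01% in every library, is not drawn. The 3 neuronal genes at the bottom of the bars, *Tubb2b*, *Tubb3* and *Tubb2a*, reach 60.4 to 63.2% in Ctrl and 66.9 to 67.6% in cKO, and the *Tubb5* segment above them is smaller in cKO.

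Of the structural microtubule-associated proteins, the axonal *Mapt* was higher in cKO and the dendritic *Map2* did not pass the test. *Map2* (ENSMUSG00000015222, chromosome 1, 66175273 to 66442583, plus strand) had 723, 885 and 802 CPM in Ctrl and 646, 859 and 659 CPM in cKO. As for *Dcx*, cKO1 and cKO3 were the lowest libraries and cKO2 lay within the Ctrl range. The log2 fold change of −0.16 (standard error 0.11, 95% interval −0.40 to 0.09, adjusted p = 0.333) did not pass, and it ranged from −0.29 without cKO2 to −0.07 with a term for the Y-chromosome genes. The difference in log2 CPM was −0.15 among libraries with Y-chromosome genes and 0.03 among those without. *Mapt* (ENSMUSG00000018411, chromosome 11, 104231390 to 104332090, plus strand) had 918, 823 and 873 CPM in Ctrl and 1098, 1011 and 1045 CPM in cKO. All cKO libraries were above all Ctrl libraries, and the log2 fold change was 0.27 (standard error 0.05, 95% interval 0.15 to 0.39, adjusted p = 0.00539), a change of 20.7%. Without Ctrl2, Ctrl3, cKO1 or cKO3, one at a time, the adjusted p lay between 0.0171 and 0.0333, at log2 fold changes of 0.23 to 0.28. The ratio of *Map2* to *Mapt* FPKM within a library was 0.361, 0.492 and 0.420 in Ctrl and 0.269, 0.389 and 0.288 in cKO. It overlapped between the groups because of cKO2, and the log2 difference of −0.44 (pooled SD 0.255) did not pass (two-sided exact permutation p = 0.2, adjusted p = 0.2).

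*Stmn2* (ENSMUSG00000027500, chromosome 3, 8509360 to 8561606, plus strand), which keeps microtubules dynamic in growing axons, showed the smallest difference of the 10. It had 868, 801 and 800 CPM in Ctrl and 850, 814 and 858 CPM in cKO, and Ctrl1 held the highest value. The log2 fold change of 0.03 had a 95% interval of −0.08 to 0.14 (adjusted p = 0.692), so that changes beyond 10.3% upward or −5.43% downward lay outside it.

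*Rbfox3* was the gene that fell. This splicing factor gene (ENSMUSG00000025576, chromosome 11, 118489762 to 118911597, minus strand) had 204, 187 and 196 CPM in Ctrl and 117, 121 and 115 CPM in cKO. The highest cKO library lay well below the lowest Ctrl library. The log2 fold change was −0.73 (standard error 0.05, 95% interval −0.84 to −0.62, adjusted p = 1.48e-05), a change of −39.7%, and 0.337% of all tested genes had a smaller p. It stayed between −0.77 and −0.69 with an adjusted p of at most 0.00109 in all 20 alternatives. Among libraries with Y-chromosome genes the difference in log2 CPM was −0.81, and among those without it was −0.66. Gene models that overlap *Rbfox3* held at most 5 counts in a library, beside at least 1852 counts for *Rbfox3*. Of the other genes of its family, *Rbfox2* was at 567 to 621 CPM in Ctrl and 612 to 639 CPM in cKO (log2 fold change 0.06, adjusted p = 0.406), and *Rbfox1*, a brain and muscle splicing factor, was at 44.9 to 54.2 CPM and 57.5 to 68.6 CPM (log2 fold change 0.34, adjusted p = 0.0200).

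Set against the young-neuron gene *Dcx* in the same library, *Rbfox3* was also low. The ratio of their FPKM was 0.6, 0.456 and 0.503 in Ctrl and 0.433, 0.328 and 0.437 in cKO. The groups did not overlap, although Ctrl2 and cKO3 lay close together. The log2 difference of −0.38 (pooled SD 0.219) had the smallest p that the exact permutation test can give, 0.1 (adjusted p = 0.133), and it was −0.25 without cKO2.

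Markers of the cerebellar neuron types moved in opposite directions beside these genes. Of all tested genes, 3.63% were called down and 3.03% up. All 8 granule neuron markers were lower in cKO and 6 were called down, among them *Neurod1* (log2 fold change −1.16, adjusted p = 6.60e-07) and *Nhlh1* (−1.78, adjusted p = 3.76e-06), transcription factors of newborn granule neurons. Their summed level was 3207 to 3318 CPM in Ctrl and 2201 to 2345 CPM in cKO. The paper reports *Pax6*, a gene of this list, in progenitor and granule neuron clusters alike. The lower values can therefore not be assigned to postmitotic granule neurons. In its single-nucleus data of the same age, the paper found similar numbers of granule neurons in control and mutant. All 5 markers of granule neuron progenitors were called down, led by *Atoh1* (log2 fold change −6.40) and *Barhl1* (−2.59), with sums of 714 to 765 CPM in Ctrl and 246 to 267 CPM in cKO. In contrast, 7 of 8 Purkinje cell markers were higher and 5 were called up, including *Skor2* (0.78, adjusted p = 3.88e-05) and *Car8* (0.63, adjusted p = 0.000104), with sums of 1560.3 to 1643 CPM in Ctrl and 2109 to 2467 CPM in cKO. *Lhx1* was the exception in that list (−0.38, adjusted p = 0.000778). All 5 markers listed for GABAergic interneurons were higher and 4 were called up, led by *Gad1* (0.58, adjusted p = 2.60e-05) and *Slc32a1* (0.65, adjusted p = 6.61e-05). Their sums were 406 to 422 CPM in Ctrl and 602 to 631 CPM in cKO. *Gad1* and *Slc32a1* serve GABAergic neurons in general, Purkinje cells included, so their calls cannot be assigned to interneurons. *Pax2*, a gene of the interneuron lineage, was higher but not called (0.46, adjusted p = 0.00017). No marker of these lists was at 0 in all libraries, and how far the mix of neuron types contributes to the values of the 10 genes was not tested.

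Beyond neurons, 5 of 6 markers of the oligodendrocyte lineage were called up (sums of 469 to 507 CPM in Ctrl and 621 to 665 CPM in cKO), as were 3 of 8 of astrocytes and Bergmann glia (3142 to 3212 CPM and 4118 to 4442 CPM) and 2 of 4 of meninges (334 to 356 CPM and 500 to 595 CPM). The share called up over all tested genes was 3.03%. The exception in the oligodendrocyte lineage was the progenitor marker *Pdgfra*, which was lower in cKO (−0.45, adjusted p = 0.000307). Of 5 markers of glutamatergic nuclear neurons, 4 had a log2 fold change above 0, with a median of 0.22. *Meis2* was called up (0.66, adjusted p = 0.00270) and *Slc17a6*, a vesicular glutamate transporter, was lower (−0.49, adjusted p = 0.000459). The sums of 123 to 130 CPM in Ctrl and 113 to 117 CPM in cKO were mostly *Slc17a6*, with means of 91 CPM in Ctrl and 65 CPM in cKO. The sum therefore does not show the direction of most of the list. No gene was called among the 2 markers of unipolar brush cells, the 5 of microglia, the 4 of endothelium, the 3 of choroid plexus and the 3 of erythrocytes, by edgeR or DESeq2. At an unadjusted p under 0.05 in edgeR, these last lists held 1, 2, 1, 1 and 0 genes respectively. *Ttr*, the abundant transcript of choroid plexus, varied from 6.06 to 711 CPM within the cKO libraries.

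Another 67 genes of the neuronal cytoskeleton and of neurons in general were read beside the 10. All 67 were tested, 48 had a log2 fold change above 0 and 19 below, with a median of 0.15. The groups did not overlap for 32 genes that were higher and 9 that were lower, beside 20.4% and 20.1% of all tested genes in those directions. Only *Dcdc2a*, a doublecortin-domain gene of cilia, was called up (11.2, 10.7 and 7.64 CPM in Ctrl and 20.3, 19.9 and 20.2 CPM in cKO, log2 fold change 1.03, adjusted p = 0.000578). None was called down by edgeR or DESeq2, while 9 had an unadjusted p under 0.05 in that direction. For all tested genes, edgeR called 3.03% up and 3.63% down. At an adjusted p under 0.01 without a fold threshold, 12 were higher and 4 lower, beside 6.55% and 7.24% of all tested genes.

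In 3 of these lists no gene was lower at the adjusted p. Of 9 pan-neuronal enzymes and synaptic vesicle proteins, all had fitted values above 0, 4 passed the adjusted p, and the median was 0.25, with *Eno2*, the neuronal enolase, at 0.44 (adjusted p = 0.000913). Of 11 neurofilament and growth cone genes, 9 were above 0 and 3 passed, with a median of 0.21 and *Nefl*, the light neurofilament chain, at 0.39 (adjusted p = 0.000790). Of 15 microtubule-associated and end-binding proteins, 10 were above 0 and 3 passed, with a median of 0.11 and *Map7d2* at 0.39 (adjusted p = 0.000872). In edgeR none of these genes reached the fold threshold together with the adjusted p, while DESeq2 called *Nefh*, the heavy neurofilament chain, up (log2 fold change 0.70, adjusted p = 0.000158 in DESeq2 and 0.0106 in edgeR).

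In each of the other 4 lists, 1 gene was lower at the adjusted p. Of the stathmins and doublecortin relatives, *Stmn4* was higher (0.40, adjusted p = 0.000567) and *Stmn1*, the stathmin that progenitors and young neurons share, was lower (−0.21, adjusted p = 0.00564). Of 9 alpha and beta tubulins, 4 were above 0 and 5 below, with a median of −0.04, and *Tubb5* was the gene that passed. Of 10 tubulin-modifying enzymes, 7 were above 0 and 3 below (median 0.10), and *Vash1*, a tubulin carboxypeptidase, was lower (−0.31, adjusted p = 0.00248). Of 8 neuronal RNA-binding proteins, 5 were above 0 and 3 below (median 0.06), and *Elavl2* was lower (−0.26, adjusted p = 0.00808). 

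**Figure D4:**
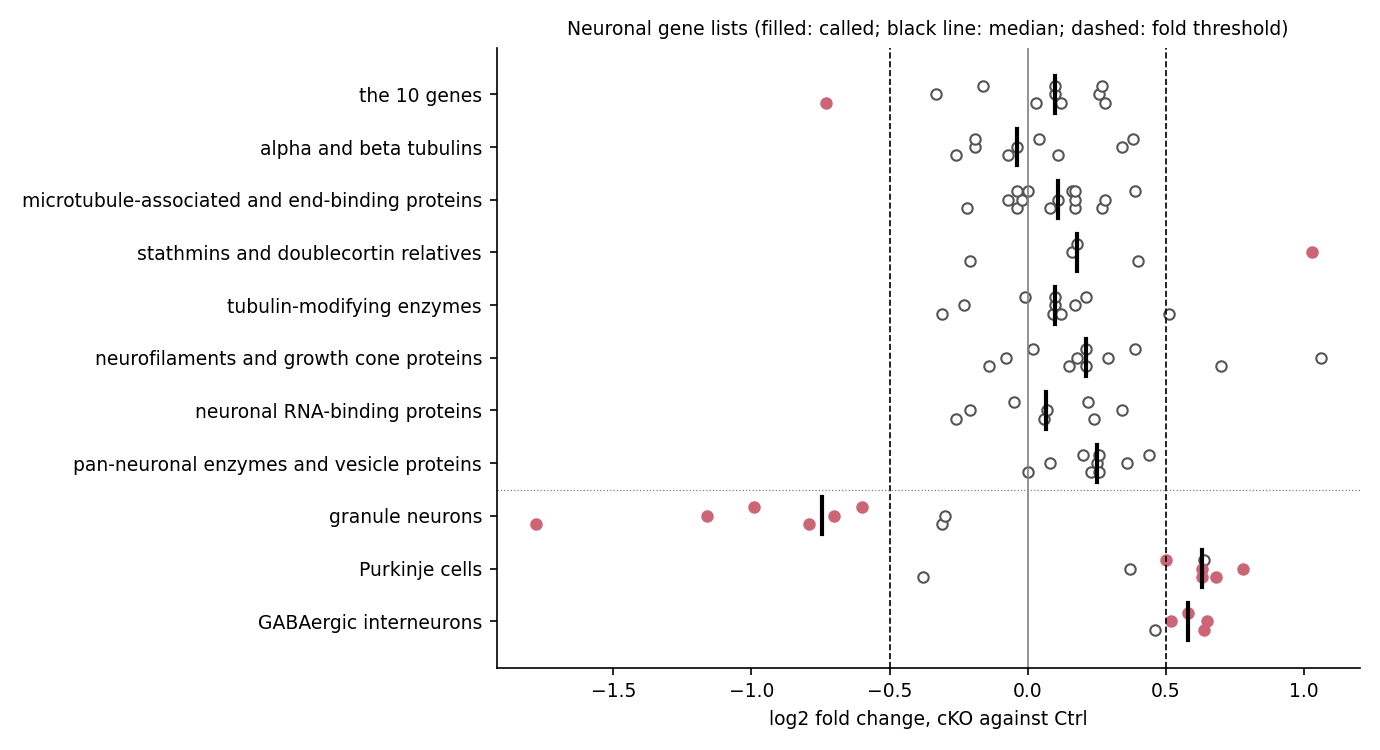
Log2 fold change of cKO against Ctrl (x axis) of each gene in the 10-gene set, in 7 other neuronal lists and, under the dotted line, in 3 lists of neuron type markers (y axis); filled points were called and black lines mark the medians. The medians of the lists above the dotted line lie between −0.04 and 0.25, while those of granule neurons, Purkinje cells and GABAergic interneurons lie at −0.75, 0.63 and 0.58.

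The spread between libraries of a group was not the same for all 10 genes. In both groups, library 2 had the highest value for *Dcx*, *Map2* and *Dclk1*, and the lowest for *Tubb3*, *Tubb2a*, *Tubb2b*, *Mapt* and *Dclk2*. For *Dcx* its deviation from the group mean was 0.11 in Ctrl2 and 0.31 in cKO2 on the log2 scale, and for *Map2* it was 0.14 and 0.26. Gene length moved with this in part: the gene length in the table was 12647 bases for *Dcx*, 16449 for *Map2* and 15296 for *Dclk1*, and 1610 to 2294 bases for the 3 tubulins. *Dclk2*, with 10553 bases, was a long gene that went the other way, with 533 CPM in Ctrl2 and 575 CPM in cKO2. Over the 1440 tested genes longer than 10000 bases, the median deviation was 0.058 in Ctrl2 and 0.071 in cKO2, and between −0.042 and 0.002 in the other libraries. Its part in the values of single genes was not tested. Within cKO, library 2 was also the sole library without Y-chromosome genes, so its spread and sex cannot be told apart. With both libraries numbered 2 left out, *Dcx* had a log2 fold change of −0.44 (adjusted p = 0.00193, edgeR) and *Map2* one of −0.22 (adjusted p = 0.0250, edgeR), and with the length trend of each library removed they were at −0.28 (adjusted p = 0.0390) and −0.07 (adjusted p = 0.440).

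**Figure D5:**
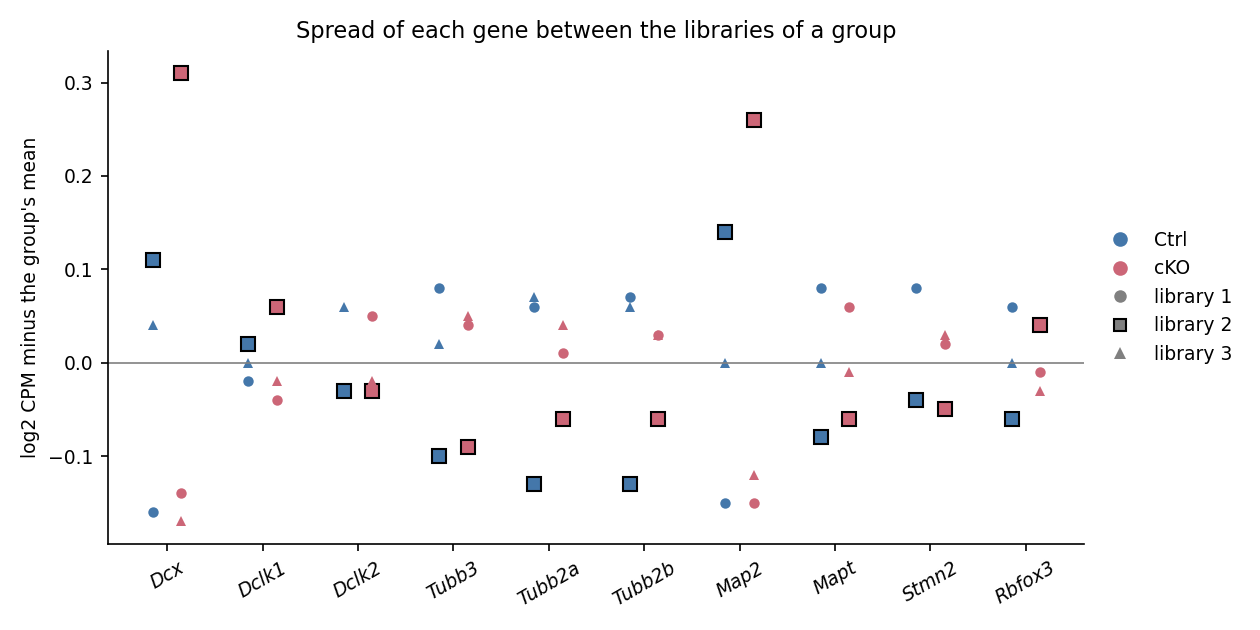
Log2 CPM minus the mean of the group (y axis) for each of the 10 genes (x axis) in the 6 libraries, with Ctrl in blue, cKO in red and library 2 as outlined squares. The squares lie highest for *Dcx* (0.11 and 0.31), *Dclk1* and *Map2* (0.14 and 0.26) and lowest for the tubulins, *Mapt* and *Dclk2*.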

How the data were processed

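Poly-T selected mRNA of P1 cerebella was sequenced as 150 bp paired-end reads. The authors removed adapter-containing and low-quality reads, aligned the rest with HISAT2 2.0.5 to mm10 and deposited counts per gene from featureCounts 1.5.0-p3, as named in the submitters' processing notes. They also deposited FPKM values, which the authors computed from the counts with gene lengths. The strand setting, the treatment of multi-mapping reads and the annotation release are not given in the sources used here. Every sample column was matched to a label. The labels name control littermates but do not tie libraries to litters or say whether each library is a separate animal. The p-values therefore set the difference between the groups against the spread between these libraries.

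Counts were filtered with filterByExpr, scaled with TMM and tested with the quasi-likelihood test of edgeR 4.0.16 in R 4.3.3, with Benjamini-Hochberg adjustment over 17505 genes. The common dispersion was 0.0105. Standard errors were the log2 fold change divided by the root of F. Replicates of a group differed by a chi-square per gene of 3.64 to 10.1, so none was a copy of another. Ratios of FPKM were compared with two-sided exact permutation tests. Gene names were taken as deposited, and 99.8% of gene identifiers occurred in GENCODE M21, from which transcripts were read (Biopython 1.88). Alternatives used DESeq2 1.42.0, limma 3.58.1 on log2(FPKM + 1) and log2(FPKM + 0.1), other scalings, filters and thresholds, the replicate number as a block, a term for Y-chromosome genes, each library left out, and the copies *Tubb2a* and *Tubb2b* summed. Leaving out both libraries numbered 2 and removing a gene length trend were chosen after seeing the data.

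The 10 genes, the lists and the tests were chosen with earlier results of these data known. Named were all 10 genes, *Tox3*, *Atoh1*, in each list of neuronal genes those called or otherwise the one with the smallest p, and at most 2 genes with the smallest p per marker list. The genes of the Y chromosome, *Rbfox1*, *Rbfox2*, *Stmn4*, *Stmn1*, *Lhx1*, *Pax2*, *Pdgfra*, *Ttr* and *Nefh* were picked after their values were seen. Counts with known changes were simulated from these libraries for 17505 genes. At an adjusted p under 0.01 without the fold threshold, edgeR recovered 8 of 67 genes at a log2 fold change of 0.35, 57 of 67 at 0.75 and 66 of 66 at 1.5. By the same rule 3 unchanged genes passed. The changed genes were drawn from many levels. They were also far fewer than the genes that passed in the real libraries, and the adjusted p depends on that number. These rates therefore do not give the power for the 10 genes.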

Additional observations from a re-analysis of the deposited data

How the results depend on the processing

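The fall of *Rbfox3* was called in every alternative run, and the median over the 10 genes stayed between 0.06 and 0.14. No log2 fold change of the 10 genes reversed. The 3 genes that were higher at an adjusted p under 0.01 numbered 1 with limma on log2(FPKM + 1) or log2(FPKM + 0.1), 0 with limma on log2(FPKM + 1) without a filter, and 0 to 3 with each library left out. The 1 gene that was lower became 2, through *Dcx*, without a low-count filter (adjusted p = 2.88e-06), with a term for Y-chromosome genes and with both libraries numbered 2 left out, and numbered 1 to 2 with each library left out. The correlation of deviations between same-numbered libraries was 0.24, 0.26 and −0.16, not over 0.1 for every number, so the numbers were not taken to pair the samples. Differently numbered libraries reached 0.27 (Ctrl1 and cKO3) and 0.23 (Ctrl3 and cKO2). Pairs alike in the presence of Y-chromosome genes lay between 0.23 and 0.27, and unlike pairs between −0.42 and −0.12. The origin of this pattern was not tested. With the number as a replicate block, 2 genes were lower, *Dcx* with a log2 fold change of −0.35 (adjusted p = 0.00379), 3 were higher, and 2 of the 67 other neuronal genes were called up. These were *Dcdc2a* and *Nefh*, and the count was also 2 with DESeq2, library size alone, upper-quartile scaling, both libraries numbered 2 left out or the length trend removed, and 1 to 2 with each library left out. With a fold threshold of 0.25, 3 of the 10 genes were called up, and the share of all tested genes at that threshold was not computed. Without any fold threshold it was 6.55% in this direction. Groups did not overlap for 5 to 9 of the 10 genes with each library left out, 8 without Ctrl1 and 9 without cKO2, where 2 libraries stood against 3. Over all tested genes this share was 40.5% with all libraries, 50.7% without Ctrl1 and 53% without cKO2. The cause of these shifts was not tested. At this depth the standard errors of the 10 log2 fold changes lay between 0.05 and 0.12, and an adjusted p above 0.01 does not show that a gene is equal in both groups.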
